A study of Drosophila melanogaster with 17 samples.

Results

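Heat shock proteins and their constitutive relatives were examined in sorted cells of the adult Drosophila midgut. The 9 genes, taken by their FlyBase symbols from the 17489 features of the expression table, were Hsp22, Hsp23, Hsp26, Hsp27, Hsp68, Hsp83, Hsc70-4, Hsc70-5 and DnaJ-1, and each was found as 1 feature. RNA was sequenced from 17 libraries, each made from about 10000 GFP-positive cells of day 3 midguts that were dissociated with elastase, sorted by flow cytometry and amplified before library construction. Wild type flies gave 5 progenitor libraries, 3 libraries labelled EC (enterocyte) and 3 EE (enteroendocrine cell) libraries; Sox100B-RNAi and Sox100B overexpression (Sox100B-OE) flies gave 3 libraries each. The labels title the EC libraries as enterocytes but give their source as enteroblasts, so they are called EC-labelled here. For these libraries the labels name no driver, no culture temperature and no separate cultures, so p-values measure the spread between libraries, which may be technical.

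Chaperones bind unfolded proteins and keep them soluble or help them to refold. Small heat shock proteins hold unfolding clients without using ATP, Hsp70-class proteins bind and release clients in ATP-driven cycles that J-domain proteins such as DnaJ-1 stimulate, and Hsp90-class proteins such as Hsp83 act late on signalling proteins and receptors. Under stress the transcription factor Hsf drives the inducible members, while the cognate genes, written Hsc, are transcribed without stress. Hsc70-5 and Hsp22 are mitochondrial proteins, so the set is not purely cytosolic. In the midgut the progenitors are the dividing stem cells and their enteroblast daughters, EEs secrete peptide hormones and ECs absorb nutrients.

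On the BDGP6 build, 4 of the genes lie together on chromosome arm 3L. Hsp22 spans 9372931 to 9374964, Hsp26 spans 9376418 to 9377427, Hsp23 spans 9381882 to 9382765 and Hsp27 spans 9384063 to 9385694. Hsp83 (3192969 to 3197059) and DnaJ-1 (5750029 to 5752189) lie elsewhere on 3L, Hsp68 (24055080 to 24057310) and Hsc70-4 (15242687 to 15246614) on 3R, and Hsc70-5 (14252598 to 14256192) on 2R. Every value below is an RPKM, a read count divided by transcript length and library size, which allows levels of different genes to be set side by side per length.

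The EE libraries carried the EE markers, with 8 marker genes summing to 78834 to 89608 RPKM against 5336 to 8832 in progenitors and 712 to 2383 in EC-labelled libraries. The 9 enterocyte markers summed to 839 to 3440 in EC-labelled libraries, 540 to 1938 in EEs and 118 to 539 in progenitors. The 7 progenitor markers summed to 407 to 597 in EC-labelled libraries against 462 to 1009 in progenitors and 74.0 to 146 in EEs. These sums hide genes that differ in direction. Mean Amy-p was 100.3 RPKM in EC-labelled libraries against 2.05 in progenitors, while Myo31DF was 26.4 against 75.5. The progenitor marker Delta was at 21.5 against 7.34, with overlapping libraries. Sox100B, the targeted gene, lay at 20.3 to 34.4 RPKM in Sox100B-RNAi libraries. Progenitor replicates 1 to 5 lay at 77.3, 69.7, 97.9, 174 and 183 RPKM. Libraries labelled Sox100B-OE lay at 105, 85.5 and 144 RPKM, inside the progenitor range but below progenitor replicates 4 and 5. The implied depth was 24.1 to 59.5 M reads in wild type and 17.4 to 29.4 M reads in Sox100B libraries. The Sox100B libraries also count reads that fall in exons shared by several genes and reads of mitochondrial features, which took 17.1 to 31.8% of their assigned reads and 0% in every wild type library. In all, 94.5 to 95.1% of their implied reads are assigned against 62.4 to 77.2% in wild type, so for any comparison of Sox100B libraries with progenitors the treatment and this difference in processing cannot be told apart.

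Hsp22 is affected directly by the difference in processing. It was listed at 0 in all 11 wild type libraries, at 516, 546 and 418 RPKM in Sox100B-RNAi, and at 152, 280.5 and 396 RPKM in libraries labelled Sox100B-OE. All 1900 of its exonic bases are shared with CG4456 (synonym Hsp67Bb), which was itself close to 0 in wild type. In the 6 Sox100B libraries both genes rested on almost the same number of reads, from 6640 and 6641 to 26397 and 26399, so values listed for Hsp22 cannot be assigned to it rather than to CG4456. The wild type values therefore give no level for Hsp22, no fold is given for it, and counts of genes below leave it out of comparisons with progenitors. Hsp27, Hsp68 and Hsp83 share 49, 26 and 15 exonic bases with a neighbour on the opposite strand, and the other 5 genes share none.

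**Figure D1:**
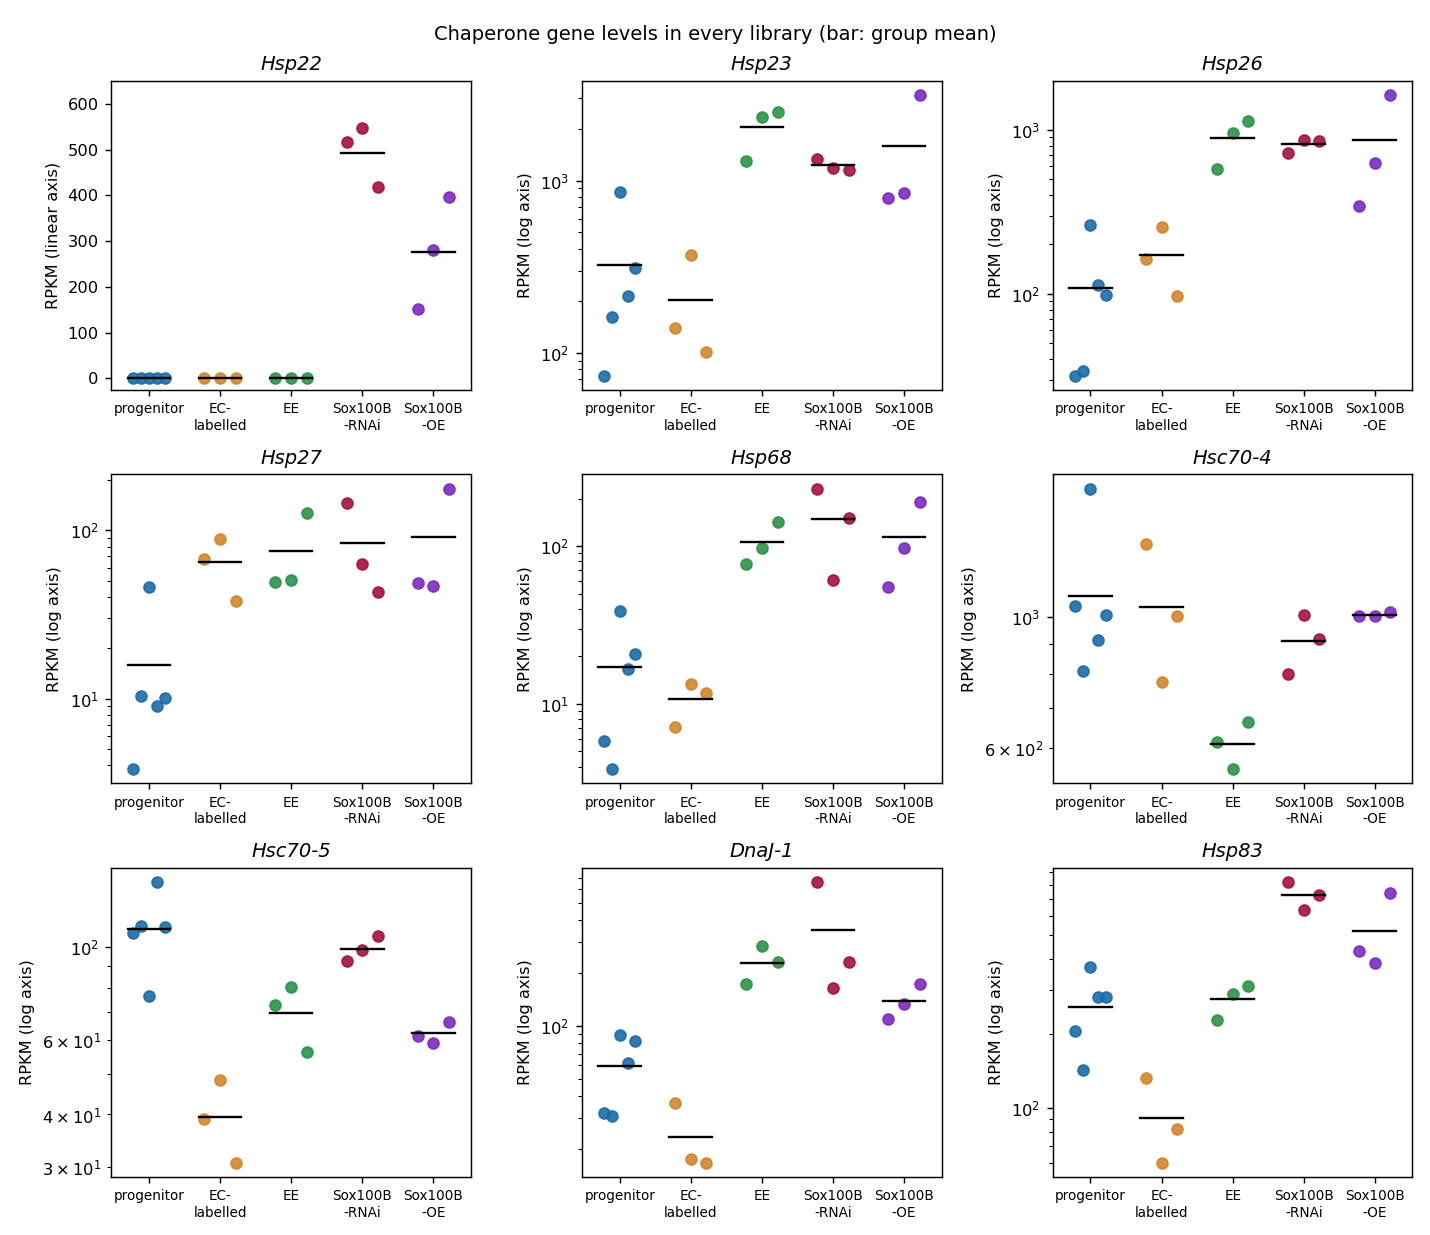
RPKM of each gene (y axis, log scale except the linear Hsp22 panel) in every library, grouped on the x axis, with a bar at each group mean. Hsp23, Hsp26, Hsp27, Hsp68 and DnaJ-1 are higher in every EE library than in every progenitor library, and Hsc70-4 is lower in every EE library. Progenitor replicate 3 tops its group for 7 of the 8 genes other than Hsp22.

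The small heat shock proteins Hsp23 and Hsp26 were high in EEs and lower in both other wild type groups. Hsp23 stood at 73.4, 160.4, 863, 214 and 309 RPKM in progenitor replicates 1 to 5, and at 1308, 2345 and 2515 RPKM in EEs. In EC-labelled libraries it stood at 139.8, 369 and 100.9 RPKM. Every EE library lay above every progenitor and EC-labelled library, and the 2 latter groups overlapped. The log2 fold change from progenitors to EEs was 3.08 ± 0.65 (SE; limma adjusted p = 0.00341), and from EC-labelled to EE libraries 3.50 ± 0.49 (limma adjusted p = 0.000549). All fold changes are on the log2(RPKM + 1) scale.

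Hsp26, the neighbour of Hsp22 and Hsp23, held 31.7, 33.9, 264, 113 and 98.4 RPKM in progenitors and 577, 959.9 and 1124 in EEs. EC-labelled libraries held 163, 255 and 97.1 RPKM. The EE libraries again lay above all others of the wild type, with a log2 fold change of 3.41 ± 0.64 over progenitors (limma adjusted p = 0.00171) and of 2.41 ± 0.41 over EC-labelled libraries (limma adjusted p = 0.00154). The difference between EC-labelled libraries and progenitors was 0.99 ± 0.64 on the log2 scale (limma adjusted p = 0.224).

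Hsp27, a small heat shock protein of the cytosol and nucleus, followed another order. Its levels were 3.80, 10.4, 46.0, 9.02 and 10.01 RPKM in progenitors, 67.6, 89.0 and 37.8 in EC-labelled libraries and 49.5, 50.8 and 127 in EEs. EC-labelled and EE libraries overlapped (log2 difference 0.16, limma adjusted p = 0.783). EEs were above progenitors by 2.49 ± 0.63 (limma adjusted p = 0.00913), and EC-labelled libraries by 2.33 ± 0.60, which missed the threshold (limma adjusted p = 0.0117) and overlapped progenitors only through replicate 3. Without progenitor replicate 3 the EC-labelled difference was 2.82 (limma adjusted p = 0.00148). The lowest value of all, in progenitor replicate 1, rested on about 167 reads.

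Of the Hsp70 class, the inducible Hsp68 was low in progenitors (5.83, 3.86, 38.8, 16.5 and 20.6 RPKM) and in EC-labelled libraries (7.18, 13.4 and 11.8 RPKM). It reached 76.6, 96.7 and 143 RPKM in EEs, with no overlap between EEs and any other wild type library. The log2 fold change was 2.90 ± 0.62 over progenitors (limma adjusted p = 0.00370) and 3.17 ± 0.33 over EC-labelled libraries (limma adjusted p = 0.000115).

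Hsc70-4, the abundant cognate of the cytosol, moved the other way. It held 1045, 811, 1656, 915 and 1009.9 RPKM in progenitors, 1335, 777 and 1007 in EC-labelled libraries and 614, 551 and 664 in EEs. Every EE library lay below every other wild type library. The log2 differences of -0.79 ± 0.23 from progenitors (limma adjusted p = 0.0159) and -0.74 ± 0.28 from EC-labelled libraries (limma adjusted p = 0.0576) did not pass the threshold.

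Hsc70-5, the mitochondrial Hsp70, was highest in progenitors at 107.7, 112, 76.7, 142.7 and 111.5 RPKM. It was lowest in EC-labelled libraries at 39.1, 48.2 and 30.7 RPKM, and held 72.7, 80.3 and 56.1 RPKM in EEs. EC-labelled libraries did not overlap either of the other groups and lay below progenitors by a log2 difference of -1.46 ± 0.26 (limma adjusted p = 0.00249). The EE values differed from progenitors by -0.64 ± 0.22 (limma adjusted p = 0.0320).

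DnaJ-1, the J-domain partner of cytosolic Hsp70, held 32.2, 31.1, 89.1, 61.7 and 82.3 RPKM in progenitors. It held 36.5, 17.6 and 16.8 RPKM in EC-labelled libraries and 174, 285 and 232 in EEs. The EE libraries lay above all other wild type libraries, by log2 2.04 ± 0.38 over progenitors (limma adjusted p = 0.00165) and 3.29 ± 0.36 over EC-labelled libraries (limma adjusted p = 0.000137). EC-labelled libraries and progenitors overlapped and differed by -1.25 ± 0.42 (limma adjusted p = 0.0347).

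Hsp83, the cytosolic Hsp90, did not share the EE pattern. Its levels were 204, 143, 371, 282 and 281 RPKM in progenitors and 227, 289 and 311 in EEs, which overlapped (log2 difference 0.17 ± 0.29, limma adjusted p = 0.660). EC-labelled libraries held 132, 59.9 and 82.2 RPKM, below every progenitor library by -1.48 ± 0.35 (limma adjusted p = 0.00824) and also below every EE library (EE minus EC-labelled 1.65 ± 0.33, limma adjusted p = 0.00380).

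Counted over the 8 testable genes, EEs against progenitors gave 5 genes higher and 0 lower, with 20.1% of the 8161 features tested called higher, 14.5% called lower and 34.6% called in either direction. A gene was called at a limma adjusted p below 0.01 and a log2 fold change beyond 0.5. The median log2 fold change of the 8 genes was 2.27 against -0.05 over all features, and in 6 genes the groups did not overlap, as in 50.4% of all features. Rescaling all features to nuclear genes with no shared exons gave 4 genes higher and 2 lower, the latter Hsc70-4 and Hsc70-5. The call depended on the few EE libraries. Without EE replicate 2 or EE replicate 3 the count was 0 by limma, with 7 and 6 genes at an unadjusted p below 0.05. It was 7 (5 higher and 2 lower) without progenitor replicate 3 and 3 (all higher) without EE replicate 1. Calls over all features went from 2823 to 1460, 1534, 3091 and 1602 in the same order. The drops in the count thus came with fewer calls among features at large. Enteroendocrine markers were called higher for 8 of 8 genes, enterocyte markers higher for 3 of 8 tested and lower for 1 (Myo31DF, -1.66). Progenitor markers were called lower for 6 of 7. Of those 6, Sox21a passed the filter only through the progenitor libraries, so its call carries little weight. The visceral muscle list summed to 8.15 to 11.9 RPKM in EEs against 1.52 to 2.86 in progenitors. Most of that difference was the gene up (mean 6.97 against 0.431 RPKM). In each EE library 8 of the 9 visceral muscle genes were below 1 RPKM. The hemocyte list summed to 5.08 to 12.98 RPKM in EEs against 0.375 to 3.13 in progenitors. The part of these lists in the result was not tested. In bulk samples, fewer cells of a type and less RNA per cell cannot be told apart.

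For EC-labelled libraries against progenitors, 2 of 8 genes (Hsc70-5 and Hsp83) were called lower and 0 higher, where 16.5% of the 7762 features were called lower, 3.56% higher and 20% in either direction. At an unadjusted p below 0.05 the count was 4, and the groups did not overlap for 2 genes, as for 39.4% of all features. The median of all features was itself -0.46 on the log2 scale, and median-of-ratios scaling moved it to -0.05; relative to that median Hsc70-5 stood at -1.001 and Hsp83 at -1.02. Under median-of-ratios scaling the count was 0, with 3 genes at an unadjusted p below 0.05. Without EC-labelled replicate 1 the count was also 0, with 4 genes at an unadjusted p below 0.05. Leaving out any of progenitor replicates 1, 4 and 5 or of EC-labelled replicates 2 and 3 left 1 gene called lower. Calls over all features went from 1556 to 940 under median-of-ratios scaling. They were 374, 328 and 1758 without EC-labelled replicates 1, 2 and 3, and 927, 992 and 935 without progenitor replicates 1, 4 and 5. Without progenitor replicate 3, 1 gene was called in each direction. With all libraries, enterocyte markers were called higher for 3 of 8 tested and lower for 1 (Myo31DF). Enteroendocrine markers were called lower for 3 of 8, of which Rab3 reached 1 RPKM in only 2 EC-labelled libraries. Of 7 progenitor markers 0 were called by limma, with 2 at an unadjusted p below 0.05. EE against EC-labelled libraries gave 5 of 8 genes higher and 0 lower, where 26.5% of the 7847 features were called higher, 6.22% lower and 32.7% in either direction, and 7 genes had no overlap between groups against 59.9% of all features. The median of all features in this comparison was 0.45, against 2.03 for the 8 genes. Median-of-ratios scaling gave 3 genes higher and 1 lower, and leaving out EE replicate 2 or 3 left 3 genes called. Calls over all features went from 2568 to 2290 under that scaling, and to 912 and 1065 without EE replicate 2 and 3. Visceral muscle markers summed to 2.71 to 14.9 RPKM and hemocyte markers to 1.37 to 4.94 in EC-labelled libraries, and their part in these differences was not tested. The 3 comparisons among wild type groups share libraries in pairs.

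**Figure D2:**
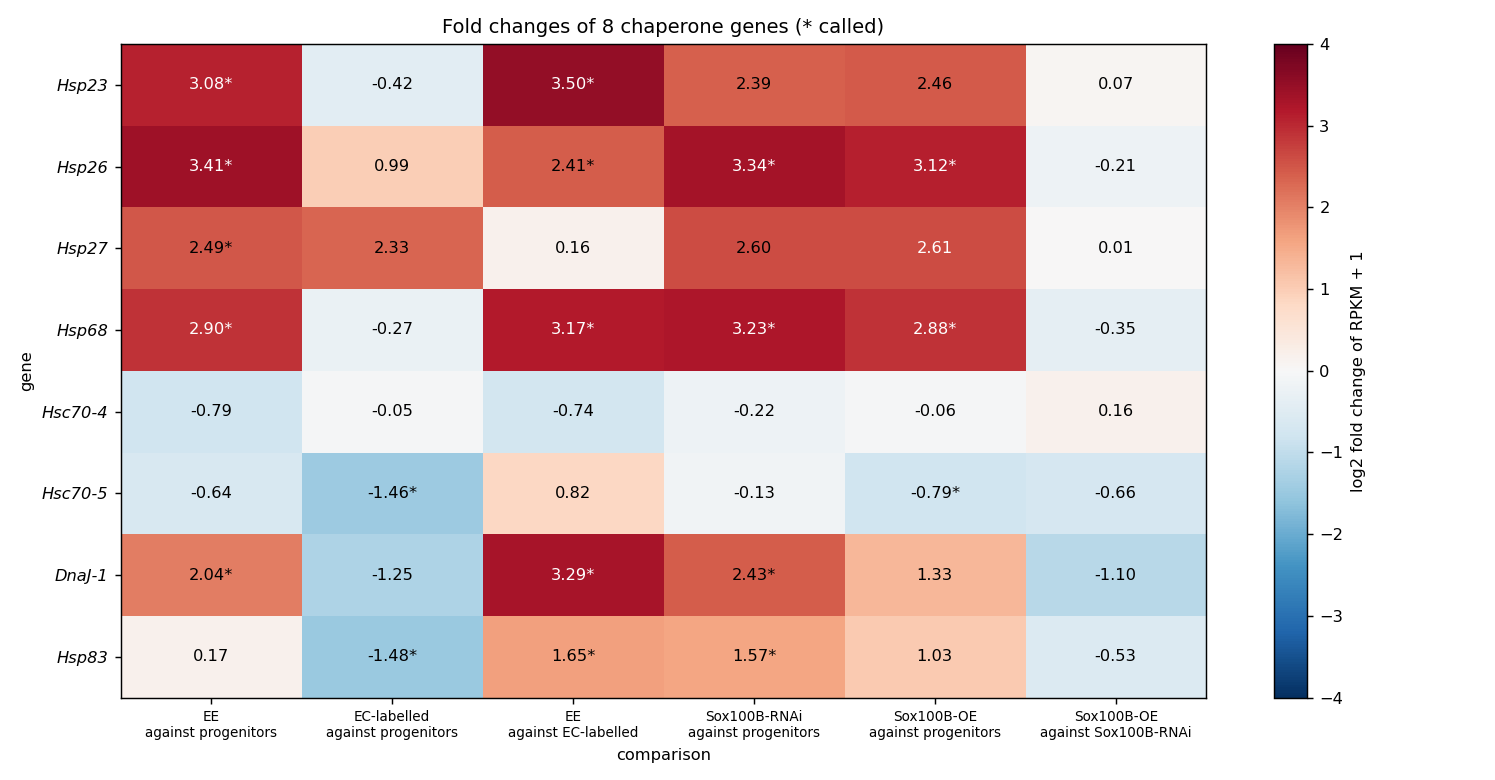
Log2 fold changes of RPKM + 1 for 8 genes (rows) in 6 comparisons (columns), first group minus second, coloured red where higher and blue where lower, with an asterisk where called. EEs against progenitors show 5 called genes from 2.04 to 3.41, and Sox100B-OE against Sox100B-RNAi shows none called.

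The make-up of the chaperone transcripts within a library does not depend on scaling between libraries. Hsp23, Hsp26 and Hsp27 together held 62.4 to 72.8% of the summed RPKM of the 8 genes in EEs, against 7.24 to 34.5% in progenitors and 17.03 to 43.8% in EC-labelled libraries, and the EE range overlapped neither. Hsc70-4 held 11.8 to 19.8% in EEs, 48.6 to 69.5% in progenitors and 47.7 to 72.7% in EC-labelled libraries. DnaJ-1 per 100 RPKM of Hsc70-4 was 28.4 to 51.6 in EEs, 3.08 to 8.15 in progenitors and 1.67 to 2.73 in EC-labelled libraries, so the 3 wild type groups were disjoint in this ratio. Hsp83 per 100 RPKM of Hsc70-4 was likewise disjoint, at 37.0 to 52.4, 17.6 to 30.8 and 7.71 to 9.88. Hsp68 per 100 RPKM of Hsc70-4 was 12.5 to 21.5 in EEs, and overlapped between progenitors (0.476 to 2.35) and EC-labelled libraries (0.538 to 1.72). For Hsc70-5 the ratio was 8.46 to 14.6 in EEs, inside the 4.63 to 15.6 of progenitors, and 2.93 to 6.20 in EC-labelled libraries. Such ratios were not computed for other genes. Within the small heat shock proteins, Hsp23 over Hsp26 was 2.24 to 2.44 in EEs, 1.90 to 4.74 in progenitors and 0.856 to 1.44 in EC-labelled libraries.

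**Figure D3:**
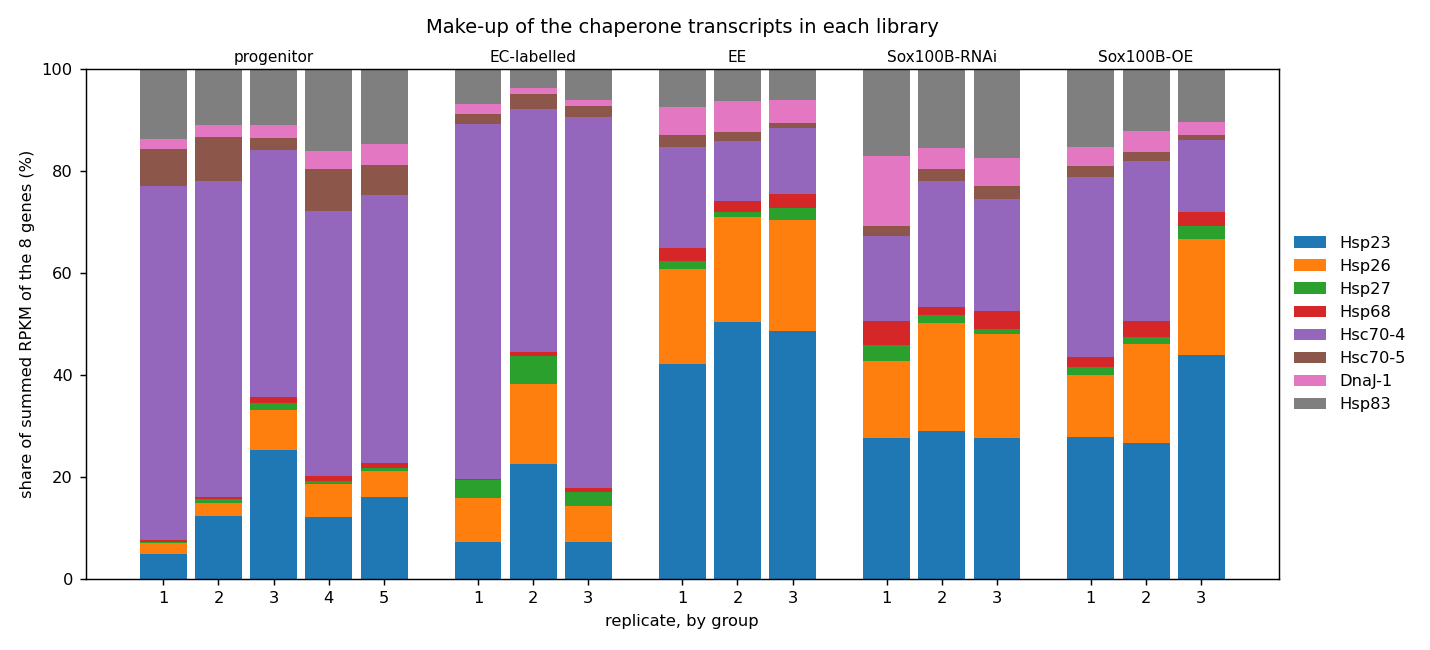
Share of the summed RPKM of the 8 genes held by each (y axis, percent; each bar is 1 library, by group and replicate). The small heat shock proteins at the bottom of the bars hold 62.4 to 72.8% in EEs, and Hsc70-4 holds 48.6 to 69.5% in progenitors.

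In Sox100B libraries the inducible genes were also high relative to wild type progenitors. Hsp26 held 727, 871 and 851 RPKM in Sox100B-RNAi and 342, 623 and 1627 in libraries labelled Sox100B-OE, all above the highest progenitor library, with log2 fold changes of 3.34 ± 0.62 (limma adjusted p = 0.00176) and 3.12 ± 0.74 (limma adjusted p = 0.00717). Hsp68 held 231, 61.3 and 150.0 RPKM in Sox100B-RNAi and 54.8, 96.5 and 191 in libraries labelled Sox100B-OE, and rose by 3.23 ± 0.68 (limma adjusted p = 0.00413) and 2.88 ± 0.69 (limma adjusted p = 0.00756). Neither gene overlapped progenitors in either group.

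Hsp23 held 1331, 1184 and 1158 RPKM in Sox100B-RNAi and 795, 850.4 and 3139 in libraries labelled Sox100B-OE. The log2 differences from progenitors of 2.39 ± 0.63 (limma adjusted p = 0.0139) and 2.46 ± 0.75 (limma adjusted p = 0.0237) missed the threshold, and progenitor replicate 3, at 863 RPKM, reached into the Sox100B-OE range. Hsp27 held 145.8, 62.7 and 43.2 RPKM in Sox100B-RNAi and 48.4, 46.9 and 177 in libraries labelled Sox100B-OE, with differences of 2.596 ± 0.65 (limma adjusted p = 0.0109) and 2.61 ± 0.70 (limma adjusted p = 0.0135), also short of the threshold.

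DnaJ-1 held 660.4, 165.5 and 233 RPKM in Sox100B-RNAi, above all progenitors by 2.43 ± 0.50 (limma adjusted p = 0.00367), and 109.5, 135 and 174 RPKM in libraries labelled Sox100B-OE, at 1.33 ± 0.38 (limma adjusted p = 0.0191). Hsp83 held 822, 634 and 729 RPKM in Sox100B-RNAi and 434, 386 and 745 in libraries labelled Sox100B-OE. It rose by 1.57 ± 0.29 in Sox100B-RNAi (limma adjusted p = 0.00183), and its difference in libraries labelled Sox100B-OE was 1.03 ± 0.33 (limma adjusted p = 0.0292). Hsp83 was thus above every progenitor library in both Sox100B groups.

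The cognates lay at or below the progenitor range. Hsc70-4 held 800.2, 1010.2 and 920.2 RPKM in Sox100B-RNAi and 1004, 1006 and 1022 in libraries labelled Sox100B-OE, within the progenitor range apart from the lowest Sox100B-RNAi library (log2 differences -0.22 and -0.06, neither called by limma). Hsc70-5 held 92.5, 98.4 and 106 RPKM in Sox100B-RNAi (log2 difference -0.13, limma adjusted p = 0.711). In libraries labelled Sox100B-OE it held 61.4, 59.1 and 66.5 RPKM, below every progenitor library, and fell by 0.79 ± 0.20 on the log2 scale (limma adjusted p = 0.00927).

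With Hsp22 left out, Sox100B-RNAi against progenitors gave 4 of 8 genes called, all higher, where 23% of 8675 features were called higher, 2.26% lower and 25.3% in either direction. In 5 of the 8 genes the groups did not overlap, against 35.3% of all features. Without Sox100B-RNAi replicate 1 or 3 the count was 0, with 6 genes at an unadjusted p below 0.05, and without replicate 2 it was 3. Calls over all features went from 2191 to 812, 625 and 795 in the same order. The median of all features was 0.20, which median-of-ratios scaling moved to 0.02, against 2.41 for the 8 genes. With nuclear genes without shared exons alone, 176 features were called, against 2191 in the main fit. Libraries labelled Sox100B-OE against progenitors gave 2 of 8 genes higher and 1 lower, where 28.9% of 8918 features were called higher, 4.83% lower and 33.7% in either direction; 6 of 8 did not overlap, against 46.9%. Without Sox100B-OE replicate 2 or 3 the count was 0, with 7 and 6 genes at an unadjusted p below 0.05. Leaving out progenitor replicate 3 made the count 6 (5 higher and 1 lower). Without progenitor replicate 1 or 2 it was also 0, with 7 genes at an unadjusted p below 0.05. It was 1 without progenitor replicate 4, progenitor replicate 5 or Sox100B-OE replicate 1. Calls over all features went from 3009 to 1145, 1066 and 1037 without Sox100B-OE replicates 1, 2 and 3. Without progenitor replicates 1 to 5 they were 2748, 2753, 3219, 2845 and 2904. Median-of-ratios scaling, which moved the median of all features from 0.26 to 0.01, gave 0 genes higher and 1 lower. With nuclear genes without shared exons alone, 676 features were called, against 3009 in the main fit. Both comparisons use the same progenitor libraries. The EE markers summed to 2426 to 4843 RPKM in Sox100B-RNAi and 8033 to 13508 in libraries labelled Sox100B-OE. The hemocyte markers summed to 0.439 to 0.492 and 5.80 to 9.93 RPKM. The EE sums hide genes that differ in direction. Mean NPF was 726 RPKM in Sox100B-RNAi and 8830 in libraries labelled Sox100B-OE, while mean AstA was 411 and 23.9. Between these 2 groups, limma called NPF and Tk higher in Sox100B-OE, and AstA, CCHa1 and CCHa2 lower. The part of both lists in the differences from progenitors was not tested.

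Libraries labelled Sox100B-OE and Sox100B-RNAi libraries were listed in the same way, so this comparison is free of the shared-exon difference. Hsp22 is included in it, with reads that cannot be told apart from those of CG4456. None of the 9 genes was called by limma, where 16% of 8848 features were called in either direction, 10.5% higher and 5.56% lower, and 3 had an unadjusted p below 0.05. Those were Hsc70-5 at -0.66 ± 0.18 (limma adjusted p = 0.0268), Hsp22 at -0.93 ± 0.33 (limma adjusted p = 0.0679) and DnaJ-1 at -1.10 ± 0.46 (limma adjusted p = 0.109), and the groups did not overlap for 2 genes, Hsc70-5 and Hsp22, as for 45.5% of all features. Hsp23, Hsp26 and Hsp27 differed by 0.07, -0.21 and 0.01, each with an SE larger than its difference. Replicate 3 was the highest of the libraries labelled Sox100B-OE for all 9 genes, by 3.69 times over the next for Hsp23.

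Over the 11 wild type libraries the highest value was 34.3 times the lowest for Hsp23, 35.5 times for Hsp26, 33.3 times for Hsp27, 37.0 times for Hsp68 and 16.9 times for DnaJ-1. It was 6.18 times for Hsp83, 4.64 times for Hsc70-5 and 3.00 times for Hsc70-4, where the median of 5540 features at 1 RPKM or more in every such library was 4.07 times. The most similar profiles over these 11 libraries, by Pearson r of log2(RPKM + 1) among 8395 features, were for Hsp23 the small heat shock protein gene Hsp67Bc (0.955) and CG34305 (0.944), for Hsp26 CG5500 (0.952) and Nplp4 (0.949), for Hsp27 Vha100-4 (0.931) and CG10472 (0.922), and for Hsp68 Nplp4 (0.970) and the inducible Hsp70Bc (0.953). For DnaJ-1 they were Mmp2 (0.971) and CG33229 (0.970), for Hsp83 Spt5 (0.962) and CG9801 (0.948), for Hsc70-4 Cpsf6 (0.936) and hppy (0.931), and for Hsc70-5 mld (0.956) and Xpd (0.955). The libraries come from 3 cell groups, so these r values describe the contrast between groups as much as variation within them.

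Other chaperones were divided in EEs against progenitors, where 20.1% of all features were called higher and 14.5% lower. Of the inducible Hsp70 genes 2 of 4 tested rose, Hsp70Bc by 2.90 ± 0.68 (limma adjusted p = 0.00578) and Hsp70Aa by 2.01 ± 0.34 (limma adjusted p = 0.000882), although these copies are nearly identical and their reads may be split uncertainly. Hsp67Bc rose by 2.90 ± 0.42 (limma adjusted p = 0.000365), alone among 3 other small heat shock proteins, and stv, a BAG-family cofactor that promotes nucleotide exchange on Hsp70, by 2.03 ± 0.19 (limma adjusted p = 2.1e-05), alone among 5 genes of its list. Among 12 other J-domain genes 1 rose (DnaJ-H, 1.03) and 4 fell, with mrj at -1.88 and CG5001 at -1.84 lowest. Among 9 chaperonins, the ring-shaped folding machines and their cofactors, 1 rose (CG11267, 0.90) and 4 fell, with CCT6 at -1.06 and CCT2 at -1.01 lowest. The Hsp90 cochaperone list had 0 of 8 called by limma and 4 at an unadjusted p below 0.05. Hsf itself stood at 23.6 RPKM in EEs and 17.8 in progenitors (log2 difference 0.42 ± 0.20, limma adjusted p = 0.112), while the heat-responsive noncoding RNA lncRNA:Hsromega rose by 1.21 ± 0.27 (limma adjusted p = 0.00508). Among 14 stress and JNK response genes 3 rose and 2 fell, a share near the 20.1% and 14.5% of all features called in those directions. Of the 3 that rose, rpr reached 1 RPKM in only 2 progenitor libraries, so its call carries little weight. Droj2 (0.06), Stip1 (-0.25), CG1416 (-0.72) and Hsp110 (-0.08), a J-domain protein, the Hsp70 to Hsp90 adaptor, the Aha1-type activator of Hsp90 and an exchange factor, were not called.

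In EC-labelled libraries, several cofactors of Hsp70 and Hsp90 lay below progenitors, where 16.5% of all features were called lower. Droj2 fell by 1.99 ± 0.25 (limma adjusted p = 0.000693), among 5 of 12 J-domain genes that fell, and Stip1 by 1.33 ± 0.28 (limma adjusted p = 0.00534) and CG1416 by 1.13 ± 0.24 (limma adjusted p = 0.00523), among 3 of 8 Hsp90 cochaperones. Hsf fell by 1.43 ± 0.32 (limma adjusted p = 0.00618), against the median of -0.46 of all features. None of 3 inducible Hsp70 genes and none of 3 other small heat shock proteins was called by limma, with 1 and 0 at an unadjusted p below 0.05. Of 9 chaperonins 0 were called by limma and 4 had an unadjusted p below 0.05, with CCT3 at 0.58 and CG11267 at 0.73. The stv and Hsp110 differences were -0.27 and -0.60, and neither was called. Of 14 stress and JNK response genes 0 were called higher and 1 lower (Irbp18), and 6 had an unadjusted p below 0.05.

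EEs against EC-labelled libraries gave 3 of 3 inducible Hsp70 genes higher, 2 of 3 other small heat shock proteins, 3 of 5 Hsp70-class and exchange genes and 5 of 12 J-domain genes, with 1 J-domain gene lower, where 26.5% of all features were called higher and 6.22% lower. Only 1 of the 3 inducible Hsp70 genes (Hsp70Bc) and 1 of the 2 small heat shock proteins (Hsp67Bc) reached 1 RPKM in 3 EC-labelled libraries, and the others passed the filter through the EE libraries, so their calls carry little weight. Of 8 Hsp90-class genes and cochaperones 1 was higher (Gp93, the Hsp90 of the endoplasmic reticulum, 1.22) and 1 lower (the cochaperone p23, -1.12), and of 9 chaperonins 0 were higher and 1 lower (CCT3, -1.19). Hsp70Bc rose by 3.81 ± 0.35 (limma adjusted p = 6.28e-05), Hsp67Bc by 3.40 ± 0.34 (limma adjusted p = 9.21e-05), stv by 2.30 ± 0.31 (limma adjusted p = 0.00046), Droj2 by 2.04 ± 0.32 (limma adjusted p = 0.00103) and Hsf by 1.85 ± 0.33 (limma adjusted p = 0.00211). Stip1 stood at 1.08, CG1416 at 0.42 and Hsp110 at 0.52, and none of these was called. Of 14 stress and JNK response genes 3 were called higher and 2 lower.

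**Figure D4:**
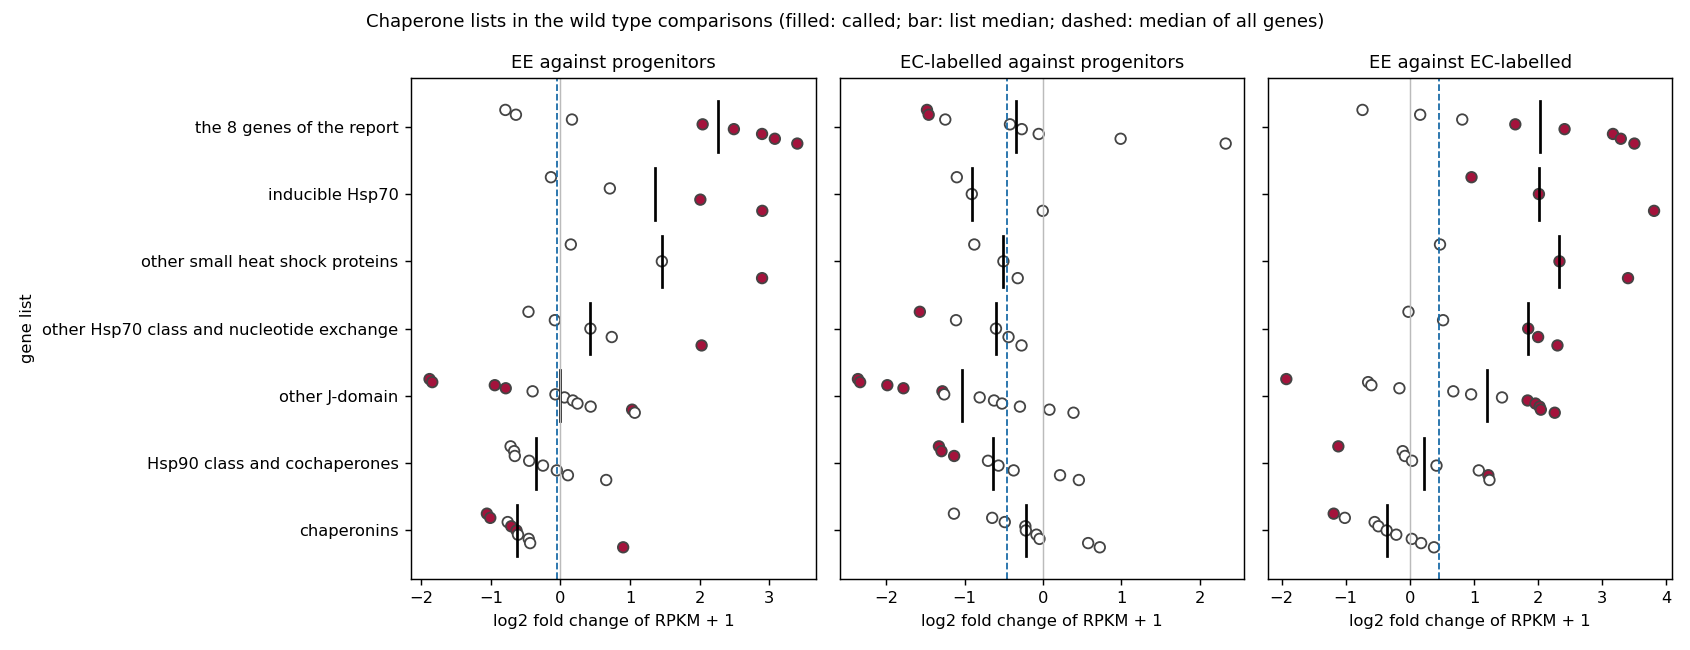
Log2 fold change of RPKM + 1 (x axis) of each tested gene in 7 chaperone lists (y axis) for the 3 wild type comparisons, filled where called, with a bar at the list median and a dashed line at the median of all features. In EEs against progenitors the 8 genes of the report have a median of 2.27, and the chaperonins have a median of -0.63.

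Against wild type progenitors, inducible Hsp70 genes were called higher for 4 of 4 in Sox100B-RNAi and 2 of 4 in libraries labelled Sox100B-OE, where 23% and 28.9% of all features were called higher. In Sox100B-RNAi 3 of the 4 reached 1 RPKM in 3 progenitor libraries, and Hsp70Ab passed the filter only through the Sox100B-RNAi libraries, so its call carries little weight. As these copies are nearly identical, their reads may be split uncertainly. For all of them the treatment and the difference in processing cannot be told apart. Hsp70Bc rose by 3.78 ± 0.68 in Sox100B-RNAi (limma adjusted p = 0.00141) and stood at 1.596 ± 0.72 in libraries labelled Sox100B-OE (limma adjusted p = 0.101). The stv gene rose by 1.93 ± 0.21 (limma adjusted p = 4.08e-05) and by 1.61 ± 0.23 (limma adjusted p = 0.000335). Within the Sox100B libraries Hsp70Bc was at 127 RPKM in Sox100B-RNAi and 28.4 in those labelled Sox100B-OE, and fell by 2.18 ± 0.40 on the log2 scale (limma adjusted p = 0.00391). Hsf was at 20.9 and 22.98 RPKM in these groups (log2 difference 0.12, limma adjusted p = 0.673). Mean lncRNA:Hsromega was 59.04 RPKM in Sox100B-RNAi, 20.8 in Sox100B-OE and 10.6 in progenitors. Against progenitors limma called it in Sox100B-RNAi alone. Of 14 stress and JNK response genes, 5 rose and 0 fell in Sox100B-RNAi by the same calls. In Sox100B-OE 7 rose and 0 fell, and 6 of those 7 reached 1 RPKM in 3 progenitor libraries. At an unadjusted p below 0.05 the counts were 8 and 13. Treatment and processing cannot be told apart here either. Droj2, Stip1, CG1416 and Hsp110 differed from progenitors by 0.44, 0.17, 0.15 and 0.18 in Sox100B-RNAi and by 0.18, -0.38, -0.50 and 0.07 in libraries labelled Sox100B-OE, and none was called.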

How the data were processed

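RNA-seq was analysed from the single table of RPKM values that the authors deposited for 17 libraries; per the labels, their tools included STAR, featureCounts 1.6.3 and DESeq2 with the BDGP6 build, without a stated role or order. The table holds 17490 features, of which 1 with missing values was dropped, and every column was matched to a sample. RPKM times exonic length fell within 0.05 of a whole number of reads for 98.0 to 98.4% of values, which gave the implied depth. Intervals on single values were not computed, and depth limits only low values.

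Each comparison was a limma fit (version 3.58.1 under R 4.3.3; lmFit and eBayes, trend on, 2-sided) to log2(RPKM + 1) over the libraries of its 2 groups alone. Features had to reach 1 RPKM in 3 or more of those libraries. P-values were adjusted by the Benjamini-Hochberg method over all features tested, with calls made under 0.01 and beyond a log2 fold change of 0.5. The code was tested on simulated data. Genes named were the 9 members, and for each list of related genes at most the 3 largest changes among those called, with Hsf, stv, Droj2, Stip1, CG1416 and Hsp110 throughout, and for each member the 2 features of most similar profile. Members and lists were chosen with earlier results of these data known. Alternatives were another pseudocount (0.1), no filter, median-of-ratios scaling, nuclear genes without shared exons, a fit of all libraries, a replicate block, subsets of progenitors and leaving out each library; rescaling all features to nuclear genes without shared exons was chosen after seeing the data. Protein, promoter and transcript sequences were not used here.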

Additional observations from a re-analysis of the deposited data

Results flagged for a closer look

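Progenitor replicate 3 stood apart from the other 4 progenitor libraries for Hsp27, at 46.0 RPKM, and for Hsc70-4, at 1656 RPKM. In each case its gap to the next library, divided by the range of the group (0.843 and 0.723), was above the critical value of 0.71 for 5 libraries. That value flags about 1 in 20 groups by chance only where levels are normally distributed. The ratio was taken on RPKM itself and not on the log2 scale of the fits, so the flags may depend on that choice. It was the highest progenitor library for 7 of 8 genes and the lowest for Hsc70-5. Its level over the mean of the other 4 was 5.53 for Hsp27, 4.56 for Hsp23, 3.82 for Hsp26, 3.32 for Hsp68, 1.75 for Hsc70-4, 1.72 for DnaJ-1, 1.63 for Hsp83 and 0.647 for Hsc70-5. The cause was not tested.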

How the results depend on the processing

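The count of called genes, without Hsp22 in comparisons with progenitors, was 5 for EEs against progenitors, 2 for EC-labelled libraries against progenitors, 5 for EEs against EC-labelled libraries, 4 for Sox100B-RNAi and 3 for Sox100B-OE against progenitors, and 0 for Sox100B-OE against Sox100B-RNAi. Without a filter these were 3, 1, 4, 2, 0 (7 at an unadjusted p below 0.05) and 0 (2 at an unadjusted p below 0.05), with more features tested. Calls over all features were then 2627, 777, 1945, 2122, 3008 and 1080. In the main fit they were 2823, 1556, 2568, 2191, 3009 and 1419. Median-of-ratios scaling gave 0 for EC-labelled libraries and 1 for Sox100B-OE, with 940 and 3064 of all features called. Nuclear genes without shared exons, which leave 5 of the genes, gave 1 for EC-labelled libraries, 3 for EEs against EC-labelled libraries, 1 for Sox100B-RNAi, 0 for Sox100B-OE (4 at an unadjusted p below 0.05) and 1 for Sox100B-OE against Sox100B-RNAi. Calls over all features of that kind were 973, 1475, 176, 676 and 956 in the same order, among fewer features. Sox100B-OE against Sox100B-RNAi also gave 1 in the fit of all libraries and 1 with all features rescaled, with 1643 and 1667 of all features called. Sox100B-OE against progenitors gave 5 in the fit of all libraries, with 3118 of all features called. Progenitor replicates 1 to 3 alone gave 3 for EEs, 0 for EC-labelled libraries (3 at an unadjusted p below 0.05) and 1 for Sox100B-OE. Calls over all features were 2673, 612 and 3077 there. Leaving out each library in turn gave 0 to 7 for EEs, 0 to 2 for EC-labelled libraries, 3 to 5 for EEs against EC-labelled libraries, 0 to 6 for Sox100B-RNAi, 0 to 6 for Sox100B-OE and 0 to 0 for Sox100B-OE against Sox100B-RNAi; fewer libraries leave less power at the threshold.

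Same-numbered replicates correlated in their deviations from group means at -0.14 to 0.36, and in no comparison above 0.1 for every pair, so the numbers were not taken to pair libraries. With the replicate block the count was 5 for EEs against progenitors, 0 for EC-labelled libraries (3 at an unadjusted p below 0.05), 5 for EEs against EC-labelled libraries, 5 for Sox100B-RNAi, 6 for Sox100B-OE and 0 for Sox100B-OE against Sox100B-RNAi (4 at an unadjusted p below 0.05). Calls over all features were 2533, 63, 2408, 2052, 2826 and 1662 in the same order. The EC-labelled comparison had 1556 in the main fit, so a count of 0 there says little about these genes.

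Single log2 fold changes that changed sign were never called. Hsp83 in EEs against progenitors was -0.21 with all features rescaled, -0.0421 against progenitor replicates 4 and 5, and -0.0263 to 0.32 leaving out libraries. For EC-labelled libraries against progenitors, median-of-ratios scaling gave Hsp23 0.0795, Hsp68 0.19 and Hsc70-4 0.45, the replicate block and progenitor replicates 1 to 3 gave Hsp68 0.0614 each, and progenitor replicates 4 and 5 gave Hsc70-4 0.0778; leaving out libraries gave -0.96 to 0.0521, -0.65 to 0.11 and -0.25 to 0.14. Hsp27 in EEs against EC-labelled libraries was -0.30 under median-of-ratios scaling, -0.0905 with all features rescaled and -0.28 to 0.43 leaving out libraries. Hsc70-5 in Sox100B-RNAi against progenitors was 0.0213 with the replicate block and 0.0213 against progenitor replicates 1 to 3. Hsc70-4 in Sox100B-OE against progenitors was 0.0715 against progenitor replicates 4 and 5 and -0.15 to 0.10 leaving out libraries. For Sox100B-OE against Sox100B-RNAi, Hsp27 was -0.0254 under median-of-ratios scaling, -0.12 with all features rescaled and -0.62 to 0.50 leaving out libraries, Hsp23 was -0.0579 under both rescalings and -0.57 to 0.42, Hsp26 -0.82 to 0.31 and Hsp68 -0.88 to 0.0777. The causes were not tested. At these depths counting error is small for all 8 genes other than Hsp22, and the number of libraries limits precision.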
